A study of Mus musculus with 46 samples.

Results

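The genes described are Pou5f1 (also called Oct4), Sox2, Klf4 and Myc, the 4 transcription factors that were delivered on retroviruses to turn mouse fibroblasts into induced pluripotent stem cells (iPSCs). They were chosen because they were delivered, and they are 4 of the 22380 protein-coding genes with a coding exon in the GENCODE vM1 annotation of the mouse build mm9. All peaks within 30 kb of each gene were taken from the 30 deposited peak lists, which gave 361 peaks, of which 263 were H3.3, 79 H3K4me3 and 19 H3K36me3. Peaks that overlapped a coding exon were kept apart from peaks in introns and flanks, because a retroviral coding copy shares its sequence with the coding exons of the endogenous gene.

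Mouse embryonic fibroblasts (MEFs) came from embryos with an IRES-EGFP cassette placed after the stop codon of Oct4, so that green fluorescence reports that gene, and they were infected with pMXs retroviruses that carry Sox2, Klf4, Oct4 and c-Myc. H3.3, H3K4me3 and H3K36me3 were measured by ChIP-Seq in day 0 MEFs (D0), at day 3 (D3), in Thy-1 negative cells at days 6 and 9 (D6T-, D9T-), in SSEA-1 positive cells at days 12 and 16 (D12S+, D16S+) and in iPSCs. H3.3 alone was also measured in the cells that did not follow this route (D6T+, D9T+, D12S-, D16S-), in the embryonic stem cell line ES-D3 (ESD3), and in another conversion of MEFs with Scl, Lmo2, Runx1 and Bmi1 (MEF at day 0, D4 at day 4, and the sorted cKit+ and cKit- cells). The treatment text of the labels names the 4 reprogramming factors for the samples of this other conversion too, and their groups were taken from the time point and sorting labels instead. The labels do not say whether D0 was collected before infection, and the methods define day 0 only for knockdown experiments, by the infection itself. D0 is counted below among the cells not given the 4 factors, and counts are also given without it. The methods describe 1 derivation of MEFs and do not say separately whether the MEFs of the other conversion carried the cassette. Every group had 1 library, so no difference was tested and all intervals are 95% Poisson intervals that cover counting error only. In H3.3 lists the fibroblast marker genes with a coding-exon peak numbered 7 of 7 in D0 (41.1% of all genes had one) and in MEF (29.3%), and 2 of 7 in iPSCs (37.3%). The pluripotency markers with one numbered 1 of 8 in D0, 8 of 8 in iPSCs and 4 of 8 in ESD3 (24.2% of all genes). The blood markers with one numbered 1 of 7 in MEF, 4 of 7 in D4 (58.9%), 2 of 7 in cKit+ (10.6%) and 1 of 7 in cKit- (9.55%). More fibroblast markers than blood markers had one in these cells, with 7 of 7 in D4, 4 of 7 in cKit+ and 3 of 7 in cKit-. The H3.3 libraries held 18.7 to 91.8 M tags and 25637 to 108179 peaks, the H3K4me3 libraries 15.8 to 35.4 M tags, and the H3K36me3 libraries 13.2 to 25.4 M tags.

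Pou5f1 encodes a POU-domain factor and Sox2 an HMG-box factor that bind DNA together at many enhancers of pluripotent cells. Klf4 encodes a zinc-finger factor and Myc a basic helix-loop-helix factor, and both are also active in fibroblasts, whereas Pou5f1 is silent there. Histone H3.3 is the H3 variant laid down outside DNA replication, H3K4me3 marks active or poised promoters, and H3K36me3 marks the bodies of transcribed genes. A delivered coding copy integrates elsewhere in the genome, but its sequenced fragments align to the endogenous coding exons, in the ChIP and in the input (sonicated chromatin without antibody) alike. The part that such copies have in the values below was not tested.

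The promoters are shown because the H3K4me3 and H3.3 peaks described here lie over or beside the starts of the genes, and the delivered coding copies do not hold them. Each sequence is the 250 bases before the start of the gene, 5′ to 3′ on the strand of the gene, from RefSeq on GRCm38.p6. The promoter table held 3 of the 4 genes. The positions are chr17:35505782-35506031 on the plus strand for Pou5f1, chr3:34649745-34649994 on the plus strand for Sox2 and chr4:55532476-55532725 on the minus strand for Klf4. Capitals mark matches to 4 motifs searched on both strands: the octamer ATGCAAAT, the Sox core ACAATG, the GC box GGGCGG and the E-box CACGTG.
Pou5f1: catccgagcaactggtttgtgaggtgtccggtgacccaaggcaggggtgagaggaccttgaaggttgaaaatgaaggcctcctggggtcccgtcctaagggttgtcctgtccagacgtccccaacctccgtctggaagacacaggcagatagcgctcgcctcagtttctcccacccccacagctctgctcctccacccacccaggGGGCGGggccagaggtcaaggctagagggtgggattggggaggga
Sox2: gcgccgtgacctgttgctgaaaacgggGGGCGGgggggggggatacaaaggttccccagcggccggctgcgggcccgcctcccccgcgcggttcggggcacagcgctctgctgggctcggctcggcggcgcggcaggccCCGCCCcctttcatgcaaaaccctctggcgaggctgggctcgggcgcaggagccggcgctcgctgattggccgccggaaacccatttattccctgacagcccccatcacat
Klf4: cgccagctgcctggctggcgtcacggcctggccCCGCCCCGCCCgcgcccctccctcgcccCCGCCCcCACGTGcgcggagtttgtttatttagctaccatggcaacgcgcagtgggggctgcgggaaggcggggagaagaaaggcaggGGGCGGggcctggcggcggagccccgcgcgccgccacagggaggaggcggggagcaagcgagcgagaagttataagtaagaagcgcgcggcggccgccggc
Of 32851 promoters of this length, 1.60% held the octamer, 10.7% the Sox core, 32.7% the GC box and 6.02% the E-box. The table held another Pou5f1 entry, at chr17:35508557-35508806, that is not shown and held 1 Sox core and no GC box. The Pou5f1 promoter shown held 1 GC box, the Sox2 promoter 2 GC boxes, and the Klf4 promoter 4 GC boxes, 2 of which overlap, and 1 E-box.

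The third coding block of Klf4, its largest, shows how a coding copy and the endogenous gene can be told apart in principle. The block has 985 bases at chr4:55542871-55543855 on the minus strand of mm9. The capitals below are the first or last 30 bases of the block, and the lower case is the 30 bases beyond its edge, first in the genome (intron) and then in the spliced GENCODE vM1 transcript (the neighbouring exon).
Start of the block, genome: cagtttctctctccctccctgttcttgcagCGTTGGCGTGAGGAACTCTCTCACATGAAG
Start of the block, transcript: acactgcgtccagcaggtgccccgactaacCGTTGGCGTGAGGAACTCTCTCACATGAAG
End of the block, genome: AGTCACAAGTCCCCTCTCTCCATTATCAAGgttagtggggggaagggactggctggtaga
End of the block, transcript: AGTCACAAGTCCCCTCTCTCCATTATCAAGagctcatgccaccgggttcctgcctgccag
A fragment inside the capitals fits the genome and the coding copy equally, and only fragments that reach into the lower case differ. The genome edges lie at chr4:55543826-55543885 for the start and chr4:55542841-55542900 for the end.

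In cells given the 4 factors, coding-exon peaks of the factors often had an input level at least 2 times that of the median peak. In the other cells no coding-exon peak did, but D0 had a peak downstream of Pou5f1 with an input level 30.5 times the median. The measure used is the input ratio. It is the input density in a peak divided by the median input density over all peaks of the same library. Input density is input tags per kb, scaled to 10 M sequenced tags. The ratio is a mean over the whole peak, so long peaks also average over sequence outside the exons. In the 22 lists from cells given the 4 factors, 55 of the 88 pairs of a factor and a list had a coding-exon peak, against 34.7% of such pairs over all protein-coding genes. Of these 55, 23 had an input ratio of at least 2, against 0.676% of such pairs over all genes. By gene they were 9 for Pou5f1, 7 for Myc, 5 for Klf4 and 2 for Sox2. At a ratio of at least 5 there were 9, all of them Pou5f1, against 0.0387%. In the 8 lists from cells not given the 4 factors, 19 of 32 pairs had a coding-exon peak (33.7% over all genes). None of these 19 reached a ratio of 2 (0.332% over all genes). The highest was 1.65, pooled over the coding-exon peaks of Myc in the H3K36me3 list of D0. The D0 peak downstream of Pou5f1 overlapped no coding exon, so it is not among the 19. Some still lay above the library median, with Myc in MEF at 1.54 (1.36 to 1.74) and Klf4 in MEF at 1.47 (1.22 to 1.75). Without D0, 12 of 20 pairs had a coding-exon peak (26.5% over all genes), and the highest ratio was 1.54. Over all genes, 0.425% of such pairs reached 2. Leaving out D0 could not raise the count at 2, which was already 0. Marks from the same stage were set against the same input library, so the lists are not independent of each other.

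Pou5f1 stood apart from the other 3 genes, and its high input was not limited to coding exons. Within 30 kb of Pou5f1 (chr17:35642982-35647721, plus strand, ENSMUSG00000024406.9), 29 peaks from D0 and from cells given the 4 factors had input ratios of 13.4 to 38.8 with a median of 25.6. The other 64 peaks of these lists were under 2, and none lay between 2 and 10. Of the 25 H3.3 peaks with high input, 9 overlapped a coding exon and 16 did not. They fell within a stretch that ran from -6.30 kb to 8.19 kb around the start of the gene, leaving out the single broad peak in iPSCs. The nearest peaks with ordinary input ended at -9.005 kb on one side and began at 8.98 kb on the other. Without the iPSCs peak, the stretch of high input was thus between 14.5 and 17.98 kb long. The iPSCs peak alone was 21.6 kb long, with a mean input ratio of 28.2, so these limits depend on leaving it out. On mm9 the inner limits are chr17:35636683-35651171. The stretch takes in the whole gene and the 3′ part of the neighbouring Tcf19 (chr17:35649679-35653769, minus strand), a gene linked to the cell cycle.

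The high input was already there in D0. D0 had 1 H3.3 peak in the stretch, from 6.58 to 7.71 kb, with 311.5 input tags, an input ratio of 30.5 and a fold over input of 2.03. In D3 the peak at the same place had an input ratio of 36.8 and in D6T+ and D9T+ the ratios were 29.9 and 27.0. The 5 lists of ESD3 and of the other conversion gave 9 peaks in the stretch, with input ratios of 0.465 to 1.47 and folds of 2.11 to 5.19. The ESD3 library and the MEF library therefore did not overlap with D0 in input at Pou5f1. The cause of the high input was not tested.

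H3.3 calls at Pou5f1 sat just above the limit for a peak. The authors' limit was a fold of at least 2 over input, and the 25 H3.3 peaks with high input had folds of 2.01 to 2.59. The median fold over all H3.3 peaks of D0 was 4.13. Over the 11 libraries that held the peaks with high input, this median ran from 3.25 in iPSCs to 4.48 in D6T+. The length called was 1.13 kb for D0, 1.34 kb for D3, 1.25 kb for D6T- and 2.87 kb for D9T-. It was longer afterwards, with 9.00 kb at D12S+, 10.1 kb at D16S+ and a single 21.6 kb peak in iPSCs. In the cells off the route it was 1.48 kb at D6T+ and 1.61 kb at D9T+, and 6.70 kb at D12S- and 6.55 kb at D16S-. The SSEA-1 positive cells thus had the longer called length of each pair, but the SSEA-1 negative cells also exceeded every earlier stage.

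The first coding-exon H3.3 peak of Pou5f1 appeared in D9T-, from 3.07 to 3.92 kb, with a density of 171 tags per kb per 10 M and a fold of 2.04. The iPSCs peak ran from -10.9 to 10.7 kb (chr17:35632123-35653719), had the highest normalised tag count of its list at 5742, a density of 266 and a fold of 2.59. ESD3 had 3 H3.3 peaks over the same stretch that covered 15.1 kb at a density of 16.9 and a fold of 3.91. The tag density was therefore far higher in iPSCs, while the fold over input was higher in ESD3. The MEF library had 2 peaks in the stretch that covered 2.52 kb at a density of 12.1, D4 had 3 that covered 8.68 kb, cKit+ had 1 of 0.500 kb and cKit- had none.

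**Figure D1:**
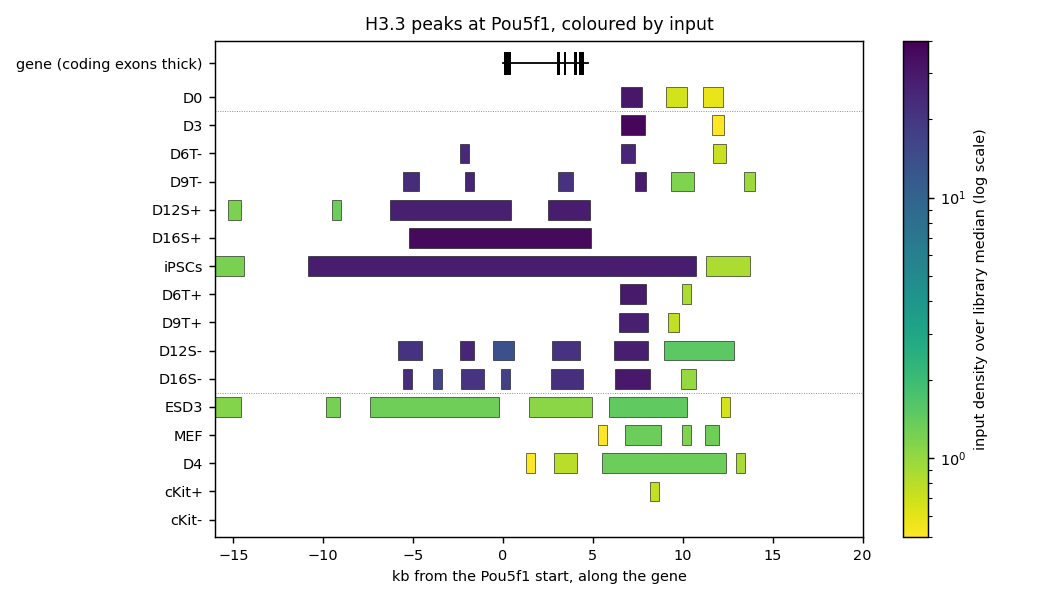
H3.3 peaks at Pou5f1 in 16 libraries, 1 row each, placed by kb from the start of the gene and coloured by input ratio on a log scale. Dotted lines set off D0 above and the cells not given the 4 factors below. The dark peaks of D0 and of the 10 libraries of cells given the 4 factors have ratios of 13.4 or more, and the peaks of ESD3, MEF, D4 and cKit+ at the same place are at 1.47 or less.

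H3K4me3 over the Pou5f1 coding exons was called in 2 of 7 libraries. D6T- had a peak from -0.09 to 0.54 kb with a density of 222, a fold of 4.10 and an input ratio of 17.1. In iPSCs a peak from -1.80 to 2.46 kb had a density of 625, a fold of 6.12 and an input ratio of 33.5, and another at 3.59 to 4.21 kb had a density of 493 and a fold of 4.16. The limit for this mark was a fold of 4, so the D6T- peak and the second iPSCs peak were near it and the main iPSCs peak was not. D16S+ had only a small peak just upstream, from -0.96 to -0.46 kb, with a density of 16.4. H3K36me3 was called over the exons only in D9T-, from 0.08 to 0.58 kb, with a density of 310, a fold of 4.06 and an input ratio of 23.7.

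Outside the stretch, H3K4me3 lay over the starts of Tcf19 and Cchcr1 in both fibroblasts and iPSCs. In D0 this peak ran from 9.09 to 12.9 kb with a density of 57.0, a fold of 24.5 and an input ratio of 0.802. Matching peaks had densities of 57.4 for D3, 67.8 for D6T-, 51.6 for D9T- and 28.0 for iPSCs, and none was called in D12S+ or D16S+.

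Sox2 has 1 coding exon, of 957 bases (gene at chr3:34548927-34551383, plus strand, ENSMUSG00000074637.3), and lies inside the span of the noncoding gene Sox2ot. Of all coding-exon peaks of Sox2, Klf4 and Myc, its D3 H3.3 peak had the highest input ratio. The peak began 110 bases before the coding exon and ended 65 bases after it, with an input ratio of 4.73 (3.35 to 6.49). In D0 the peak covered 79.2% of the exon and held 6.7 input tags, with an input ratio of 0.953 (0.400 to 2.05). The 2 counting intervals do not overlap, but they hold no spread between libraries. By input ratio Sox2 ranked 5 of the 7671 genes with a coding-exon H3.3 peak in D3, where 0.130% of genes reached a ratio of 3.

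At the later stages the input ratio over the Sox2 exon was lower, at 1.77 for D6T- and 1.74 for D9T-. For the SSEA-1 positive cells it was 1.81 at D12S+ and 1.33 at D16S+, and iPSCs had 1.01. Off the route the values were 0.815 in D6T+, 0.970 in D12S- and 1.86 in D16S-, and D9T+ had no peak over the exon. In cells not given the 4 factors they were 0.808 in ESD3, 1.23 in MEF and 1.13 in D4, and cKit+ and cKit- had no peak. Peak lengths differed, with 1.13 kb in D3, 3.78 kb in iPSCs, 2.59 kb in D12S- and 2.03 kb in ESD3.

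H3.3 density over the Sox2 exon was 14.0 tags per kb per 10 M in D0 and 36.6 in D3, a ratio of 2.61. Over all genes with a peak in both, 0.107% had a density at least 1.5 times higher in D3. With input subtracted the densities were 10.8 and 22.4, a ratio of 2.07. The fold over input fell on the other hand, from 4.38 to 2.58, since the input was also higher in D3. In iPSCs the density was 14.0 again and in ESD3 it was 12.0.

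H3.3 peaks around Sox2 but outside its exon were found mainly at the end of the route and in embryonic stem cells, mostly with ordinary input. There were none for D0, D3 and D6T-, 1 each for D9T- and D12S+, 3 for D16S+, 8 for iPSCs and 6 for ESD3. None was called in D6T+, D9T+, D12S- or D16S-, although the D12S- list was longer (87536 peaks) than the iPSCs list (81867). MEF had 1 and D4 had 2. Most of those in iPSCs and ESD3 lay downstream, from 3.24 to 22.2 kb in iPSCs and from 3.19 to 21.9 kb in ESD3. Their input ratios were 0.685 to 1.40 in the downstream peaks of iPSCs and 0.435 to 1.47 in ESD3, while 1 upstream peak of D16S+, from -1.09 to -0.59 kb, had 2.26. Over all genes, 11.0% had such a peak in iPSCs and none in D0, and 7.95% had one in ESD3 and none in D0.

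H3K4me3 was present over Sox2 in all 7 libraries. Its density was 29.2 in D0, 101 in D3 and 82.2 in D6T-. D9T- had 40.9, the 2 SSEA-1 positive samples 29.0 and 27.9, and iPSCs 42.9. The ratio of D3 to D0 was 3.47, and 3.60 with input subtracted, and 0.899% of genes with a peak in both were at least 1.5 times higher in D3. The D3 peak had an input ratio of 2.43 over 3.17 kb, beyond the exon on both sides. The ratio of iPSCs to D0 was 1.47, while 85.9% of genes were at least 1.5 times lower in iPSCs, so Sox2 went against the bulk of genes. No H3K36me3 peak overlapped Sox2 in any library.

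Klf4 (chr4:55540013-55545347, minus strand, ENSMUSG00000003032.7) was the only one of the 4 genes that had no coding-exon H3.3 peak in D0 and one in D3, a pattern of 5.15% of all genes. With at least 50% of the peak required in exons, the gene with this pattern was Myc instead. Over the third coding block, D3 had a peak with an input ratio of 3.07 (2.14 to 4.15) and a density of 34.3. D0 had no H3.3 peak there, only one at the 3′ end of the transcript with an input ratio of 0.928. In D3 the peak over the last coding block, from 3.81 to 4.86 kb, had an input ratio of 1.41. The 2 peaks upstream of the gene had 1.41 and 1.55, and the 2 downstream 0.842 and 1.13. The highest input was thus over the largest block. By pooled input ratio over its coding exons, 2.45, Klf4 ranked 18 of 7671 genes in D3.

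Over the third block the input ratio was 1.84 for both D6T- and D9T-, 2.50 for D12S+ and 2.57 for iPSCs, and D16S+ had no peak. The Thy-1 positive samples had 1.47 at D6T+ and 1.27 at D9T+, and the SSEA-1 negative samples 2.38 at D12S- and 2.54 at D16S-. Among cells not given the 4 factors, MEF had 1.47 and D4 0.997, and ESD3, cKit+ and cKit- had no peak. The MEF peak was 3.92 kb long and the D4 peak 5.58 kb, against 1.77 kb in D3. A peak was counted if it overlapped the block at all, and the iPSCs peak covered 30.2% of it and ran 895 bases past it, while the D12S- peak covered 58.0%. With these, 5 of the 9 libraries with a peak from cells given the factors were at 2 or more, and neither of the other 2 was. Over all peaks of the H3.3 lists of cells given the factors, 0.462% (D6T-) to 3.03% (D16S+) reached 2. Outside exons, 24 H3.3 peaks around Klf4 in these cells had ratios of 0.532 to 1.55. That none of them reached 2 is thus near the share over all peaks.

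The H3K36me3 list of D3 held the same feature, with a peak over the third block of Klf4 at an input ratio of 3.50 (2.46 to 4.81), a density of 43.5 and a fold of 4.36. By input it ranked 4 of the 52456 peaks of that list. The H3.3 and H3K36me3 lists of D3 were set against the same input library, so this ratio is not a separate measurement. In D0 the H3K36me3 peak lay at the 3′ end of the gene, from 4.09 to 5.59 kb, with a density of 15.4 and an input ratio of 1.08. After D3 no H3K36me3 peak was called over Klf4. The approximate immunoprecipitation efficiency given with the H3K36me3 lists was 31.3% in D0, 14.1% in D3, 7.5% at D6T- and 42.4% at D9T-. It was 1.07% at D12S+, 1.99% at D16S+ and 2.88% for iPSCs. H3K4me3 over the coding exons was 67.4 at D0 and 85.5 at D3, and the Thy-1 negative samples had 102 at D6T- and 72.8 at D9T-. The SSEA-1 positive samples had 36.3 and 27.7, and iPSCs 52.9. The median over all genes with a coding-exon H3K4me3 peak was also lower, at 56.7 in D0 and 25.1 in iPSCs.

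Myc (chr15:61816946-61821929, plus strand, ENSMUSG00000022346.8) has most of its coding sequence in coding blocks 2 and 3, the second and the third, of 772 and 560 bases. In D3 the H3.3 peaks followed them. The peak over the second block had an input ratio of 3.33 (2.25 to 4.90) and reached 241 bases before it and 152 bases after it, and the peak over the third had 2.15 (1.53 to 3.02). The first exon, which is nearly all untranslated, had a D3 peak from 0.06 to 0.69 kb with an input ratio of 0.892, although the coding start of 1 transcript puts it among coding-exon peaks. In D0 a single peak from 0.80 to 7.26 kb covered both large blocks, with an input ratio of 1.31 and a density of 15.0. Pooled over its coding-exon peaks, the D3 ratio was 2.29 and ranked 26 of 7671 genes.

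Over the second block the ratio was 1.77 for D6T-, 2.25 for D9T-, 2.45 for iPSCs and 2.27 in D16S-. Over the third block the values were 2.50 for D6T-, 1.62 for D9T-, 3.07 for D12S+, 2.45 for iPSCs and 2.24 for D16S-. The iPSCs value is that of 1 peak, which covered the third block whole and 20.1% of the second. The Thy-1 positive cells had lower values, with 1.13 and 1.03 in D6T+ and 0.560 over the third block in D9T+. The second block had no peak in D9T+. D12S- had 1.26 and 1.69, and D16S+ had no peak over either block. The peaks of the Thy-1 positive cells were also longer, with 3.68 and 2.63 kb in D6T+ and 2.42 kb in D9T+. Those of D6T- were 1.19 and 0.885 kb, and those of D9T- 1.18 and 1.02 kb. In H3.3 lists of cells not given the 4 factors the input ratios were 1.54 in MEF, 1.22 in D4 and 1.43 over the third block in ESD3. The H3K36me3 list of D0 had a 1.64 kb peak over 89.3% of the third block, with an input ratio of 1.89 (1.20 to 2.84). That interval overlaps the one of the D3 H3.3 peak over this block. The MEF and D4 ratios are each from a single peak, of 8.085 and 12.5 kb. These peaks covered both blocks and much sequence beyond them, so an excess over the blocks alone would be averaged out in part. Outside exons, the 22 peaks around Myc in cells given the factors had ratios of 0.546 to 1.63.

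**Figure D2:**
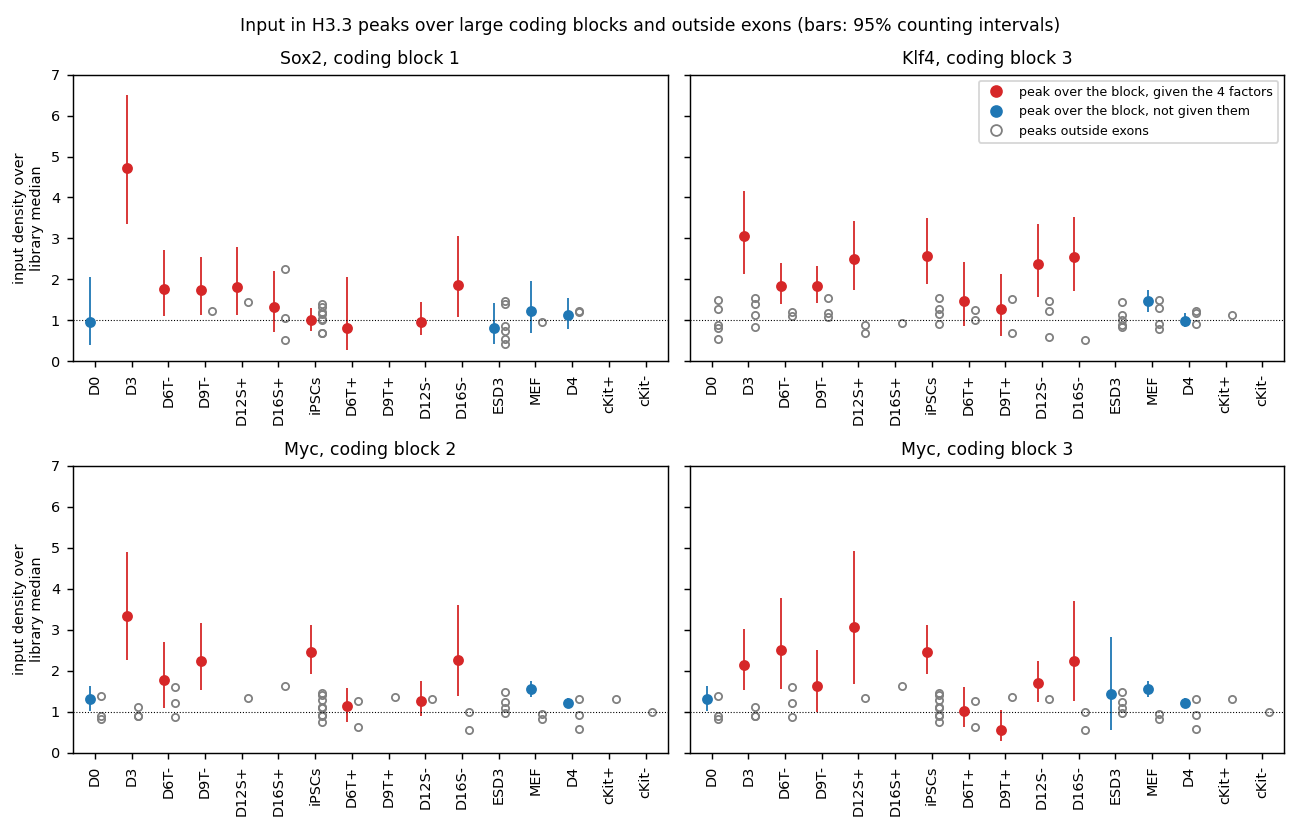
Input ratio of the H3.3 peak over each coding block of 500 bases or more of Sox2, Klf4 and Myc, by library, with 95% counting intervals (red, cells given the 4 factors, blue, other cells) and of the peaks outside exons (grey circles). A peak is shown if it overlaps the block at all, and its ratio is a mean over the whole peak. The highest values are in D3 over Sox2 (4.73) and the second block of Myc (3.33), followed by the third block of Myc in D12S+ and Klf4 in D3 (both 3.07), and blue points do not exceed 1.54.

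**Figure D3:**
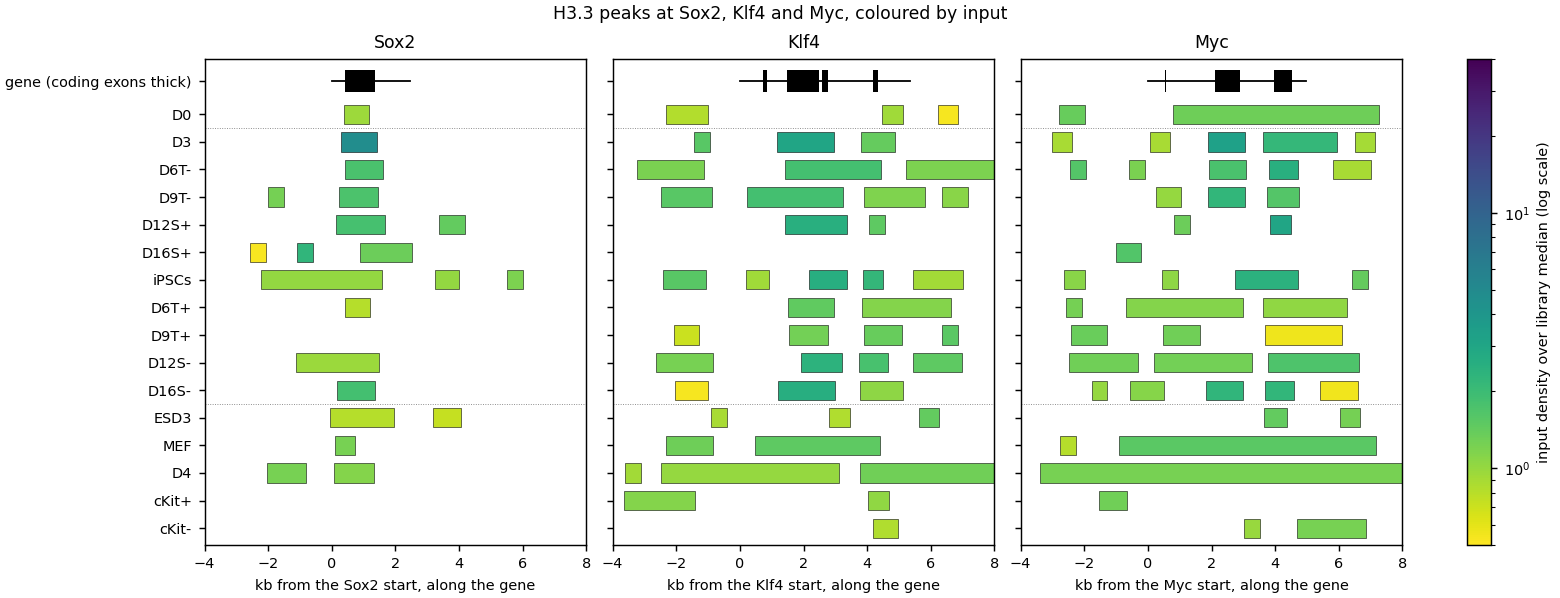
H3.3 peaks at Sox2, Klf4 and Myc in 16 libraries, 1 row each, by kb from the start of each gene and coloured by input ratio on a log scale. In D3 the peaks with the highest input lie over the large coding blocks, with ratios of 4.73, 3.07 and 3.33, and the peaks beside them are lighter.

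H3.3 density over the Myc coding exons was 15.0 in D0 and 20.3 in D3, a ratio of 1.35, or 1.27 with input subtracted. In iPSCs it was 18.6, a ratio of 1.24 to D0, or 1.01 with input subtracted. H3K4me3 over Myc was 89.5 in D0, 95.9 in D3 and 117 in D6T-. Later samples had less, with 72.6 at D9T-, 37.3 at D12S+, 29.99 at D16S+ and 47.8 for iPSCs. The median over all genes with a coding-exon H3K4me3 peak was also lower later. It was 56.7 in D0, 48.8 at D9T-, 24.2 at D12S+, 20.8 at D16S+ and 25.1 for iPSCs. The approximate immunoprecipitation efficiency given with the lists was 30.4% in D0, 9.27% at D12S+, 3.71% at D16S+ and 12.7% for iPSCs. The ratio of iPSCs to D0 was 0.534 for Myc and 0.785 for Klf4, against the 85.9% of genes that were at least 1.5 times lower. Myc was among those and Klf4 was not. H3K36me3 was called over Myc only in D0, with a pooled density of 21.8. Every later list of this mark except D9T- had a lower immunoprecipitation efficiency than D0.

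**Figure D4:**
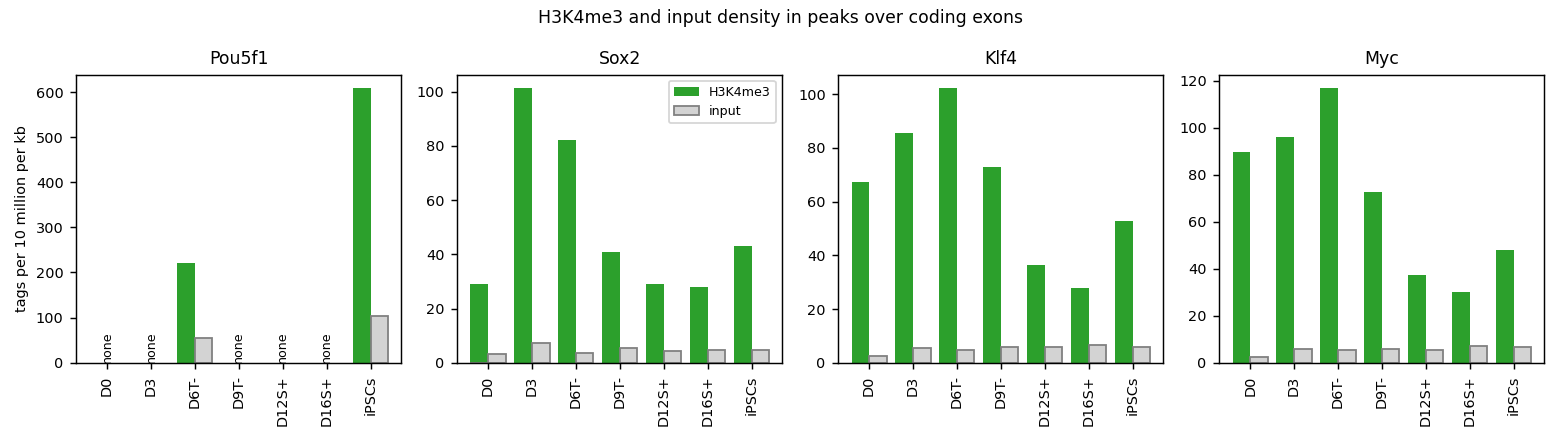
H3K4me3 density (green bars) and input density (grey bars) in tags per kb per 10 M, over coding-exon peaks of the 4 genes in 7 libraries, with a separate vertical scale for each gene. Pou5f1 has a peak in D6T- and iPSCs only, with high input in both, and Sox2 is highest in D3 at 101.

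The number of the 4 genes with a coding-exon peak was read for each list against all genes. For H3.3 it was 2 at D0 (41.1% of all genes), 3 at D3 (34.3%), 3 at D6T- (39.2%) and 4 at D9T- (33.9%). It was 4 at D12S+ (24.1%), 2 at D16S+ (16.2%) and 4 for iPSCs (37.3%). Off the route the H3.3 counts were 3 at D6T+ (29.3%), 2 at D9T+ (29.3%), 4 at D12S- (42.7%) and 4 at D16S- (32.8%). Pou5f1 had no coding-exon peak from D0 to D6T- nor in the Thy-1 positive samples, Klf4 had none in D0 and Sox2 none in D9T+.

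In cells not given the 4 factors the H3.3 counts were 3 for ESD3 (24.2%), 3 for MEF (29.3%), 4 for D4 (58.9%), 1 for cKit+ (10.6%) and 1 for cKit- (9.55%). The 1 gene of the sorted cells was Klf4 in both. For H3K4me3 the counts were 3 at D0 (52.8%), 3 at D3 (50.4%), 4 at D6T- (52.6%) and 3 at D9T- (50.7%). They were 3 at D12S+ (47.6%), 3 at D16S+ (29.4%) and 4 for iPSCs (52.9%), and Pou5f1 was again the gene missing where 3 were counted. For H3K36me3 the counts were 2 at D0 (42.9%), 1 at D3 (35.7%) and 1 at D9T- (44.7%). No coding-exon H3K36me3 peak of the 4 genes was called at D6T- (30.6%), D12S+ (12.3%), D16S+ (14.5%) or in iPSCs (22.2%).

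Genes of the same circuits that were not delivered had input ratios under 2 with 1 exception, as did nearly all genes. Over all genes with a coding-exon peak, 0.676% of pairs of a gene and a list reached 2 in cells given the 4 factors. In the other cells 0.332% did. Of 16 listed pluripotency genes, 15 were in the annotation, and those with a coding-exon H3.3 peak numbered 2 in D0 (41.1% of all genes), 2 in D3 (34.3%), 13 in iPSCs (37.3%) and 7 in ESD3 (24.2%). Their input ratios in iPSCs were 0.633 to 1.48. Only Sall4, a zinc-finger factor of pluripotent cells, reached 2 in an H3.3 list, with 2.06 in D9T-. Nanog, a core factor of the same network, had a density of 14.3 in iPSCs at an input ratio of 1.34, and 23.7 in ESD3 at 1.75. Of 10 listed relatives of the 4 factors, 9 were in the annotation, 3 had a coding-exon H3.3 peak in D0 (41.1% of all genes) and 6 in iPSCs (37.3%), and none reached an input ratio of 2 in an H3.3 list. Klf2 and Klf5 are on both lists.

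No other gene met the rule of an input ratio of at least 5 in 3 or more H3.3 libraries of cells given the factors without one of 2 or more in D0 and ESD3. Pou5f1 met it only because D0 had no coding-exon peak, since its D0 peak with high input lay downstream.

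The endogenous genes of the factors of the other conversion were read in the same way. Tal1 (Scl), a basic helix-loop-helix factor of blood formation, was delivered as a mouse gene, and it had no peak in MEF. In D4 it had 3 coding-exon peaks with input ratios of 1.62, 1.35 and 2.28, and in cKit- 1 with 1.91. Lmo2 was delivered as a human gene, as were Runx1 and Bmi1 by the wording of the methods. In D4 the coding-exon peaks of Lmo2, an adaptor protein, had ratios of 1.09, 1.25 and 1.83, and those of Bmi1, a Polycomb subunit, 1.11 and 1.12. In Runx1, a factor of blood stem cells, they were 0.996 to 1.71.

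The genes whose coding-exon H3.3 was most like that of each factor over the 12 reprogramming libraries were listed from 13880 genes by Pearson correlation of log2(normalised tag count + 1). They were Slc4a3 (0.94), Cldn6 (0.94) and Ppp1r14a (0.92) for Pou5f1, RP23-333M15.8 (0.96), Sco2 (0.92) and Setd1b (0.91) for Sox2, Purb (0.98), Mocs1 (0.95) and Ahdc1 (0.95) for Klf4, and Camk2n2 (0.98), Sbds (0.98) and Cyb5r3 (0.98) for Myc. The 12 points share depth and the presence or absence of a called peak.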

How the data were processed

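The 30 peak lists of 46 samples were used, and the 16 input samples entered through the input tags of each peak. Per the labels and the methods, the authors aligned reads to mm9 with STAR, removed reads with several loci, and called peaks with HOMER against the input of the same stage. The versions are not given in the sources used here. The deposited normalised tag count of a peak is a signal in tags per 10 M. The deposited ChIP and input tag values are signals scaled to the smaller library: input was scaled in 23 lists and ChIP in 7. The deposited fold is the ratio of ChIP to input, at least 2 for H3.3 and 4 for the other marks, and the deposited p-value limit was 0.0001. From these, density is tags per kb per 10 M, and input per 10 M is the ratio of input to ChIP tags times the tag count. Peaks were placed with GENCODE vM1. Python 3.11.15, pandas 2.3.3, numpy 2.4.6, scipy 1.17.1 and matplotlib 3.10.9 were used. With 1 library a group, no test was made. Peak lists show nothing below the limits, and a missing peak is not an absence of signal. Intervals are Poisson intervals on rounded deposited tags. Scripts were tested on simulated peaks. The genes, lists and measures were chosen with earlier results of these data known. Named genes were the 4 factors, the 4 factors of the other conversion, the 3 most similar genes of each factor, genes with high exon input, and the fixed lists of pluripotency genes and relatives.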

Additional observations from a re-analysis of the deposited data

How the results depend on the processing

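No paired analysis was possible because every group had 1 library, and for the same reason no replicate could be left out. Of 59 values under an alternative, 30 stayed within their counting interval or 1.5 times the main count, 25 moved and 4 changed sign, and 12 could not be computed because no peak was left or D0 had none. With peaks limited to a fold of at least 4, the D3 input ratios were 1.41 for Klf4 and 0.892 for Myc, the D3 H3.3 densities 17.9 and 12.9, and Sox2 in D3 and Pou5f1 in iPSCs had no peak. A fold is ChIP over input, so this limit by its construction removes peaks with high input first. With input subtracted, the D3 densities were 22.4 for Sox2, 20.8 for Klf4 and 13.4 for Myc, and that of Pou5f1 in iPSCs was 163. With at least 50% of a peak required in exons, 4 pairs instead of 9 reached an input ratio of 5 and Myc in D3 had a density of 23.4. Against the median over coding-exon peaks, the ratio of Pou5f1 in iPSCs was 27.4. The log2 ratio of H3.3 outside exons in iPSCs over D0 depended on the window. For Pou5f1 it was -1.09 at 30 kb, -3.20 at 10 kb, 0.083 at 100 kb and -0.84 with input subtracted. For Klf4 it was 0.38 at 30 kb, -0.28 at 10 kb, 1.24 at 100 kb and 0.98 with equal numbers of peaks. For Myc it was 1.40 at 30 kb, 0.33 at 10 kb, -0.33 at 100 kb and -1.33 at a fold of at least 4. With input subtracted, the log2 ratio of H3K4me3 was 3.61 for Pou5f1 and -1.25 for Myc. The H3K36me3 sums in D0 were 71.9 for Pou5f1, 0 for Klf4 and 0 for Myc with equal numbers of peaks, and 95.1 for Pou5f1 and 35.9 for Myc with input subtracted. A coding-exon H3.3 peak in D3 and none in D0 was found for Klf4, for Myc instead with at least 50% of the peak in exons, for 2 genes (Klf4, Myc) at a fold of at least 4 and for 2 (Klf4, Sox2) with equal numbers of peaks. Leaving out D0, chosen after seeing the data, could not change the pairs with a ratio of 5 in cells not given the factors. Their count was already 0 with D0. The cause of these shifts was not tested. Depth limits the small peaks, many of which rest on under 10 input tags.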

Other observations

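In D16S+ the H3.3 and H3K4me3 lists were set against the same input, yet they gave different input values at Pou5f1. The H3.3 peak from -5.25 to 4.87 kb held an input ratio of 36.03, and the H3K4me3 peak inside it, at chr17:35642026-35642526, held 2.5 input tags and an input ratio of 0.904. It was the only peak of D0 or of cells given the 4 factors inside the stretch of high input with a ratio under 2. Next to this position, the H3.3 peaks of D12S- and D16S- over the start of the gene were among the lowest of the high values. They had 13.4 in D12S- from -0.54 to 0.59 kb and 17.1 in D16S- from -0.11 to 0.39 kb. H3K4me3 peaks over the start differed, with 17.1 in D6T-. In iPSCs, where the main peak spans the start, the pooled ratio over the coding exons was 34.2. The reason was not tested.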
